A study of Mus musculus with 9 samples.

Results

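Sialyltransferases are the enzymes that attach sialic acid to the sugar chains of glycoproteins and glycolipids, and their products are what Siglecs, the sialic acid-binding receptors of immune cells, recognise. Of 22180 genes named on the arrays, 10 were taken here: St8sia6, St8sia4, St8sia1, St6gal1, St3gal1, St3gal2, St3gal3, St3gal4, St3gal5 and St3gal6. The genes were picked as makers of Siglec ligands after St8sia6 had been seen to differ among the genotypes, so their own differences are given as descriptions, and the counts of members past a threshold support nothing. Each of the 10 had 1 probe set annotated with its symbol alone, and that probe set stands for it. A further 2 probe sets that list one of these genes beside other symbols were not used.

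Follicular B cells, which are naive and recirculate through the B cell follicles, were sorted from the spleens of mice homozygous for an ε allele of the heavy chain locus Igh (ε/ε, 3 arrays), mice homozygous for a γ1 allele (γ1/γ1, 3 arrays) and mice with the wild-type locus (3 arrays). The alleles bear the names of the IgE and IgG1 constant regions, and the labels used here do not say how they were built. All 3 genotypes were labelled VJk5, which the labels leave unexplained, and all mice were polyclonal and 6 to 12 weeks old. The replicates are called independent but are not tied to separate animals, so the p-values reflect only how far these arrays scatter, which may be technical. Values are log2 signals as deposited, and a difference of 1 is a doubling. To be tested, a gene had to exceed the array's median over all probe sets on 3 or more of the 9 arrays.

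The St3gal and St6gal enzymes cap galactose on finished glycans, each family in its own linkage, and the St8sia enzymes join further sialic acids to a sialic acid already in place. On B cells the St6gal1 linkage is the one bound by CD22, an inhibitory receptor that holds back signals from the B cell receptor and that binds ligands on its own cell. Mouse St8sia6 makes short chains of linked sialic acids that Siglec-E, an inhibitory receptor of myeloid cells, can bind. Before any transferase can act, sialic acid must be made, activated with CMP and carried into the Golgi, and in mice Cmah converts the acetyl form to the glycolyl form that mouse CD22 prefers.

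The windows before the start sites of St8sia6 and St8sia4 are shown because these were the members whose genotype means lay furthest apart. Each holds the 250 bases before the annotated start, written 5′ to 3′ on the gene's own strand, from RefSeq on GRCm38.p6. The CpG dinucleotides are in capitals. St8sia6 lies on the minus strand, at chr2:13793521-13793770, and St8sia4 on the minus strand at chr1:95667595-95667844.
St8sia6: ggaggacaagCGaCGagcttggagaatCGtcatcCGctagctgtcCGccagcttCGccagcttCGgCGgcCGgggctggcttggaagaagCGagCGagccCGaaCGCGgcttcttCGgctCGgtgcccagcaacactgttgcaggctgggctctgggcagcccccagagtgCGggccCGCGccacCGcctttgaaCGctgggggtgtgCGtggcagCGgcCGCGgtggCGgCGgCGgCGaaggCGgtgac
St8sia4: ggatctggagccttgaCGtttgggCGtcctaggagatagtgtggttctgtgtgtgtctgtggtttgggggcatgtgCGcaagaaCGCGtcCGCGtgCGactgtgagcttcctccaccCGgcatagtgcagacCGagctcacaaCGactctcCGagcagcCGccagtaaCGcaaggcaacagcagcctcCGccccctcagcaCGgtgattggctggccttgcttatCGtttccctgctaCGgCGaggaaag
The St8sia6 window held 30 CpG dinucleotides at a GC content of 70.8%, and 5.95% of 32807 RefSeq windows of the same length held as many or more. The St8sia4 window held 19 CpG dinucleotides at a GC content of 60.4%, and 19.7% of the windows held as many or more. Over all windows the median was 6 CpG dinucleotides and a GC content of 52.4%. The TATA box letters TATAAA, searched on both strands, were in neither window and were in 12.4% of all windows. The GC box letters GGGCGG, also searched on both strands, were absent from the St8sia6 window, occurred 1 time in the St8sia4 window, 57 bases before the start, and were in 32.7% of all windows. A match of letters is a description of the window and shows no binding. Windows were found for 8 of the 10 members.

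The arrays carried B cell transcripts: 8 of the 9 listed B cell genes were measured, and all 8 lay above the array median on every array. These genes mark B cells in general and do not single out the follicular cells of the label, whose own list is given further below. Array medians were alike, at 3.53 to 3.69. Array pairs correlated at 0.929 to 0.958 among ε/ε, at 0.948 to 0.968 among γ1/γ1 and at 0.970 to 0.978 among wild-type arrays. A pair of arrays stood apart by sex-linked transcripts: Xist was 5.25 on ε/ε replicate 1 and 4.53 on replicate 1 of γ1/γ1, with 10.37 to 10.79 on the other 7 arrays. Eif2s3y, a Y-linked gene, was 7.40 and 7.99 on the same arrays. It was 5.40 and 3.64 on the other ε/ε arrays, 3.52 and 2.75 on the other γ1/γ1 arrays and 2.93 to 3.44 in wild-type. Eif2s3y and the Y-linked Kdm5d and Uty were each higher on every ε/ε array than on every wild-type array, those of high Xist included. Some of these ε/ε values lay below the array median. ε/ε replicate 1 also carried more macrophage transcripts, with a mean of 6.24 over 18 listed macrophage genes, against 4.37 and 3.98 in the other ε/ε arrays, 3.68 to 3.84 in γ1/γ1 and 3.63 to 3.73 in wild-type.

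St8sia6 (probe set 17381879) was highest in γ1/γ1, intermediate in ε/ε and lowest in wild-type. Its log2 signals were 5.56, 5.94 and 5.70 in ε/ε, 6.85, 6.82 and 6.50 in γ1/γ1, and 5.37, 5.01 and 5.18 in wild-type. No array of one genotype reached the range of another, and all 9 arrays lay above the array median. The means were 5.74 ± 0.19 in ε/ε cells, 6.72 ± 0.19 in γ1/γ1 cells and 5.19 ± 0.18 in wild-type cells (SD, n = 3 each).

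The γ1/γ1 minus wild-type difference of St8sia6 was 1.53 (SE 0.17), a signal 2.89-fold that of wild-type. The ε/ε minus wild-type difference was 0.55 (SE 0.17), or 1.46-fold. The ε/ε minus γ1/γ1 difference was -0.99 (SE 0.17), a 1.98-fold lower signal in ε/ε. The spread within a genotype was therefore small beside the distances from γ1/γ1, and the ε/ε and wild-type ranges, though apart, were separated only by the gap between 5.56 and 5.37. The comparisons with wild-type share the same 3 wild-type arrays.

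**Figure D1:**
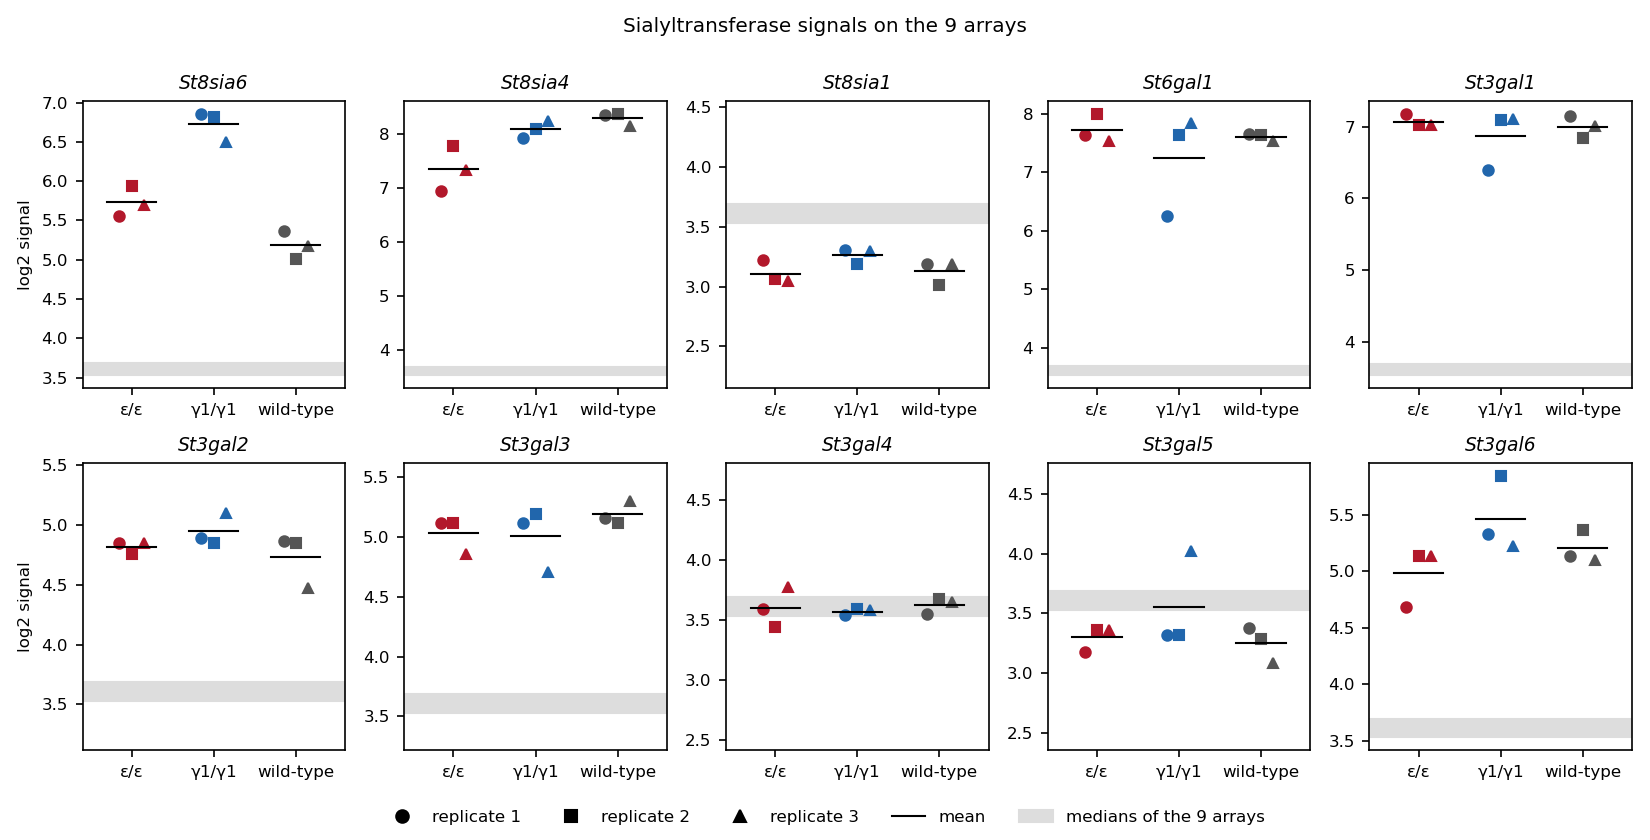
Log2 signal (vertical axis, a separate range per panel) of the 10 sialyltransferase genes in ε/ε, γ1/γ1 and wild-type arrays. Each symbol is 1 array, its shape gives the replicate number, the bar is the mean of 3 arrays and the grey band spans the medians of the 9 arrays. St8sia6 separates into 3 levels, with ε/ε at 5.56 to 5.94, γ1/γ1 at 6.50 to 6.85 and wild-type at 5.01 to 5.37, and St8sia4 is lower on the ε/ε arrays than on all others.

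The order γ1/γ1 above ε/ε above wild-type with no overlap was shown by 9 of the 12170 genes tested, or 0.0740%. The order wild-type above γ1/γ1 above ε/ε with no overlap was shown by 157 genes, or 1.29%. Between γ1/γ1 and wild-type 5 genes passed an adjusted p of 0.05 in limma's moderated test, or 0.0411%, and St8sia6 was among them. The others were Il9r and Cacna1e, which were higher in γ1/γ1, and 4930597A21Rik and Ighm, which were lower. 4930597A21Rik exceeded the array median on 3 arrays only, those of wild-type. It was therefore tested only through its high group, and its call is not independent of the filter. Ighm encodes the µ constant region and Il9r an interleukin receptor. St8sia6 was chosen from this contrast, so its place among the 5 adds no evidence. Without γ1/γ1 replicate 2 the count was 0, with 1016 genes at an unadjusted p under 0.05.

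The size of the St8sia6 differences changed little when arrays were left out. Without ε/ε replicate 1 the ε/ε minus wild-type difference was 0.63, and without both arrays of low Xist the γ1/γ1 minus wild-type difference was 1.47 and the ε/ε minus γ1/γ1 difference was -0.84. Over 19 other settings of the analysis the γ1/γ1 minus wild-type difference ranged from 1.45 to 1.64. The ε/ε minus γ1/γ1 difference ranged from -1.10 to -0.84 over them, and the ε/ε minus wild-type difference from 0.44 to 0.64.

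St8sia4 (probe set 17225815), which builds polysialic acid, a long chain of linked sialic acids on a few carrier proteins, was lower in ε/ε. Its signals were 6.94, 7.77 and 7.33 in ε/ε, 7.93, 8.08 and 8.24 in γ1/γ1, and 8.34, 8.36 and 8.15 in wild-type. Every ε/ε array lay below every array of the other genotypes, and the γ1/γ1 and wild-type ranges overlapped. The means were 7.35 ± 0.42 in ε/ε cells, 8.08 ± 0.15 in γ1/γ1 cells and 8.28 ± 0.11 in wild-type cells (SD, n = 3 each).

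The ε/ε minus wild-type difference of St8sia4 was -0.94 (SE 0.20), a 1.91-fold lower signal. The ε/ε minus γ1/γ1 difference was -0.74 (SE 0.20), and the γ1/γ1 minus wild-type difference was -0.20 (SE 0.20, 95% interval -0.65 to 0.25). The lowest St8sia4 value was that of ε/ε replicate 1, the array with the most macrophage signal. Without ε/ε replicate 1 the ε/ε minus wild-type difference was -0.73, under quantile normalization it was -0.77, and over the 19 settings it ranged from -1.15 to -0.73. Thus St8sia6 and St8sia4, both of the St8sia family, did not share a pattern on these arrays. In ε/ε against wild-type St8sia4 was lower, and St8sia6 was higher without passing the threshold.

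St8sia1 (probe set 17472588) is the enzyme of the family that makes the ganglioside GD3. Its signals lay between 3.01 and 3.31 and were below the array median on all 9 arrays, so it was not tested. No level above background can be given for it in any genotype.

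St6gal1 (probe set 17324420), the maker of the CD22 ligand, had signals of 7.63, 7.99 and 7.54 in ε/ε, 6.25, 7.64 and 7.84 in γ1/γ1, and 7.66, 7.64 and 7.53 in wild-type. The 3 genotypes overlapped, and γ1/γ1 replicate 1, at 6.25, lay below all other arrays, the next of which was at 7.53. The means were 7.72 ± 0.24 in ε/ε cells, 7.25 ± 0.87 in γ1/γ1 cells and 7.61 ± 0.07 in wild-type cells (SD, n = 3 each). The difference was 0.11 (SE 0.35) for ε/ε minus wild-type, -0.37 (SE 0.35) for γ1/γ1 minus wild-type and 0.47 (SE 0.35) for ε/ε minus γ1/γ1. Without γ1/γ1 replicate 1 these became 0.13 for γ1/γ1 minus wild-type and -0.03 for ε/ε minus γ1/γ1, so both signs rest on that array.

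St3gal1 (probe set 17317675), which caps mucin-type O-glycans, had its lowest value on the same array. Its signals were 7.17, 7.02 and 7.02 in ε/ε, 6.40, 7.09 and 7.10 in γ1/γ1, and 7.14, 6.84 and 7.01 in wild-type. The genotypes overlapped, with differences of 0.07 for ε/ε minus wild-type, -0.13 for γ1/γ1 minus wild-type and 0.20 for ε/ε minus γ1/γ1 (SE 0.20 each). Without the arrays of low Xist, γ1/γ1 replicate 1 among them, the sign turned for ε/ε minus γ1/γ1, to -0.08, and for γ1/γ1 minus wild-type, to 0.10.

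St3gal6 (probe set 17331173), which sialylates N-glycans and selectin ligands, had signals of 4.68, 5.14 and 5.14 in ε/ε, 5.33, 5.84 and 5.22 in γ1/γ1, and 5.14, 5.37 and 5.10 in wild-type. All ε/ε arrays lay below all γ1/γ1 arrays, and wild-type overlapped both. The ε/ε minus γ1/γ1 difference was -0.47 (SE 0.20), the ε/ε minus wild-type difference -0.22 (SE 0.20) and the γ1/γ1 minus wild-type difference 0.26 (SE 0.20). Without ε/ε replicate 1, the lowest array, the ε/ε minus wild-type difference was -0.06 and the ε/ε minus γ1/γ1 difference -0.32. The gap between the nearest ε/ε and γ1/γ1 arrays, 5.14 and 5.22, was narrow.

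The remaining St3gal genes did not separate the genotypes. St3gal2, which acts on O-glycans and gangliosides, ranged from 4.76 to 4.85 in ε/ε cells, 4.85 to 5.10 in γ1/γ1 cells and 4.47 to 4.87 in wild-type cells. St3gal3, which acts on N-glycans, ranged from 4.86 to 5.12 in ε/ε cells, 4.71 to 5.19 in γ1/γ1 cells and 5.12 to 5.30 in wild-type cells. Their differences in the 3 comparisons lay between -0.19 and 0.21 (SE 0.15 for St3gal2 and 0.16 for St3gal3). St3gal4, another enzyme of N-glycans and selectin ligands, ranged from 3.44 to 3.78 in ε/ε cells, 3.54 to 3.59 in γ1/γ1 cells and 3.55 to 3.68 in wild-type cells. It exceeded the array median on only 3 arrays, so little can be said of its level. St3gal5, which makes the ganglioside GM3, lay between 3.09 and 4.02, was above the median only on γ1/γ1 replicate 3 and was not tested.

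**Figure D2:**
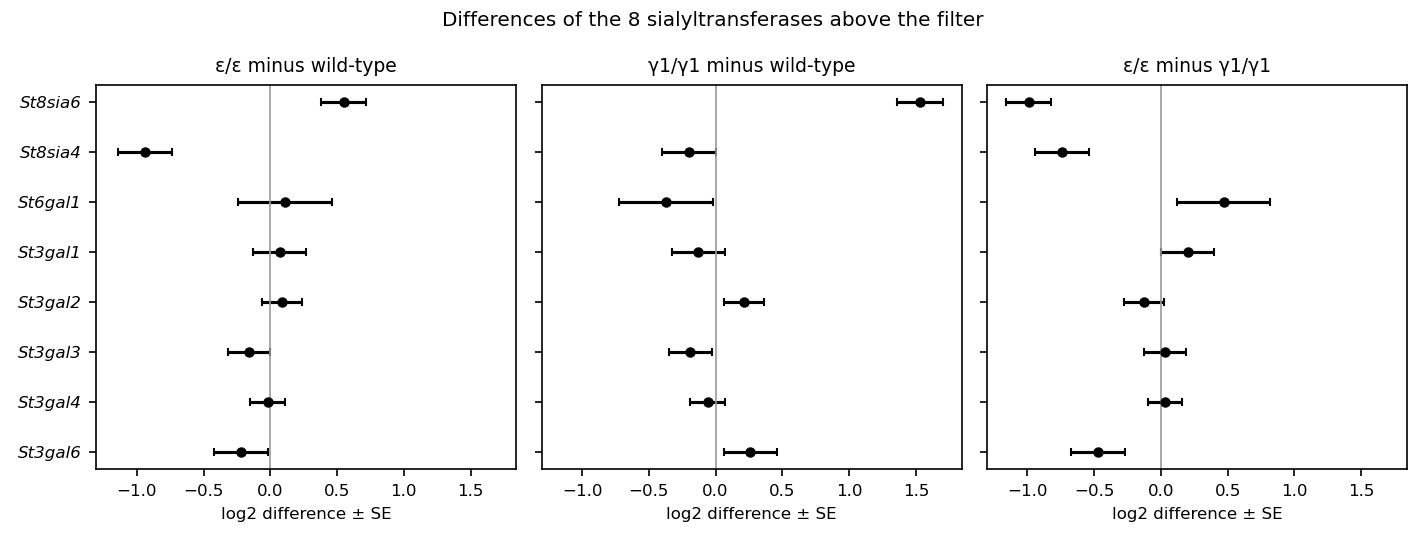
Differences of log2 signal (horizontal axis) for the 8 sialyltransferase genes that passed the filter on dim signals, with standard errors from the fit over 9 arrays as bars. From left to right the panels give ε/ε minus wild-type, then γ1/γ1 minus wild-type, then ε/ε minus γ1/γ1. St8sia6 lies at 0.55, 1.53 and -0.99, St8sia4 at -0.94, -0.20 and -0.74, and the other 6 genes lie between -0.47 and 0.47.

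Of the 10 members 8 passed the filter, and St8sia1 and St3gal5 did not. In ε/ε against wild-type 1 of the 8 passed the threshold, St8sia4, beside 6.34% of all genes tested. In γ1/γ1 against wild-type 1 of the 8 passed, St8sia6, beside 0.0411%, and in ε/ε against γ1/γ1 1 of the 8, again St8sia6, beside 2.66%. Groups did not overlap for 2 of the 8 in ε/ε against wild-type (28.4% of all genes), 1 in γ1/γ1 against wild-type (12.4%) and 3 in ε/ε against γ1/γ1 (21.1%). The choice of the members used these contrasts, so nothing is read from the counts. The median difference over the 8 was 0.02 for ε/ε minus wild-type, -0.10 for γ1/γ1 minus wild-type and -0.05 for ε/ε minus γ1/γ1, beside -0.01, -0.02 and 0.00 over all genes tested. In bulk samples, fewer cells of a type and less RNA per cell cannot be told apart.

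The rest of the pathway was described through 69 listed genes that are no members, of which 49 were tested. Between ε/ε and wild-type 2 rose and 2 fell, beside 2.33% of all genes that rose and 4.02% that fell. Between γ1/γ1 and wild-type 0 passed limma's adjusted p. At an unadjusted p under 0.05 were 5 of the 49, beside 830 of the 12170 genes tested. Between ε/ε and γ1/γ1 1 rose and 2 fell, beside 1.02% and 1.64% of all genes. Without ε/ε replicate 1 the counts were 4 against wild-type and 1 against γ1/γ1, beside 525 and 196 of all genes tested. The median difference over the 49 was 0.02 in each of the 3 comparisons. Tests in the paragraphs that follow are limma's, adjusted over all 12170 genes.

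Of the 11 genes of sialic acid supply, all tested, Cmah alone passed. Cmah had signals of 6.35, 7.13 and 7.01 in ε/ε, 7.98, 7.98 and 7.93 in γ1/γ1, and 8.94, 8.83 and 8.78 in wild-type. The genotypes did not overlap, with wild-type highest and ε/ε lowest, the reverse of the wild-type and ε/ε order of St8sia6. The means were 6.83 ± 0.42 in ε/ε cells, 7.96 ± 0.03 in γ1/γ1 cells and 8.85 ± 0.09 in wild-type cells (SD, n = 3 each).

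Cmah fell by 2.02 on the log2 scale in ε/ε against wild-type (SE 0.19), a 4.06-fold lower signal, at an adjusted p of 0.00126. It passed in all 19 other settings, with adjusted p of 0.000741 to 0.0152, and without ε/ε replicate 1 the difference was -1.78 at an adjusted p of 0.00104. It also fell in ε/ε against γ1/γ1, by 1.13 (SE 0.19) at an adjusted p of 0.0166. That call was lost when any one γ1/γ1 replicate was left out, at adjusted p of 0.0588 without replicate 1, 0.0580 without replicate 2 and 0.0589 without replicate 3. It was also lost with only the 6 arrays compared (adjusted p = 0.0822). The γ1/γ1 minus wild-type difference was -0.89 (SE 0.19) at an adjusted p of 0.364, although the groups did not overlap.

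The other supply genes did not pass in any comparison. Cmas, which activates sialic acid with CMP, differed by -0.60 in ε/ε against wild-type (adjusted p = 0.129) and by -0.68 in γ1/γ1 against wild-type (adjusted p = 0.599). Gne, the enzyme that starts sialic acid synthesis, had signals of 4.98, 5.54 and 5.95 in ε/ε, 5.02 on each γ1/γ1 array, and 4.80, 4.97 and 4.78 in wild-type. Its ε/ε arrays all lay above wild-type, by a mean of 0.64 (adjusted p = 0.102), and so did its γ1/γ1 arrays, by 0.17 (adjusted p = 0.907). Groups did not overlap for 28.4% of all genes in ε/ε against wild-type and for 12.4% in γ1/γ1 against wild-type. The median of the supply genes was -0.37 for ε/ε minus wild-type, 0.04 for γ1/γ1 minus wild-type and -0.14 for ε/ε minus γ1/γ1.

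**Figure D3:**
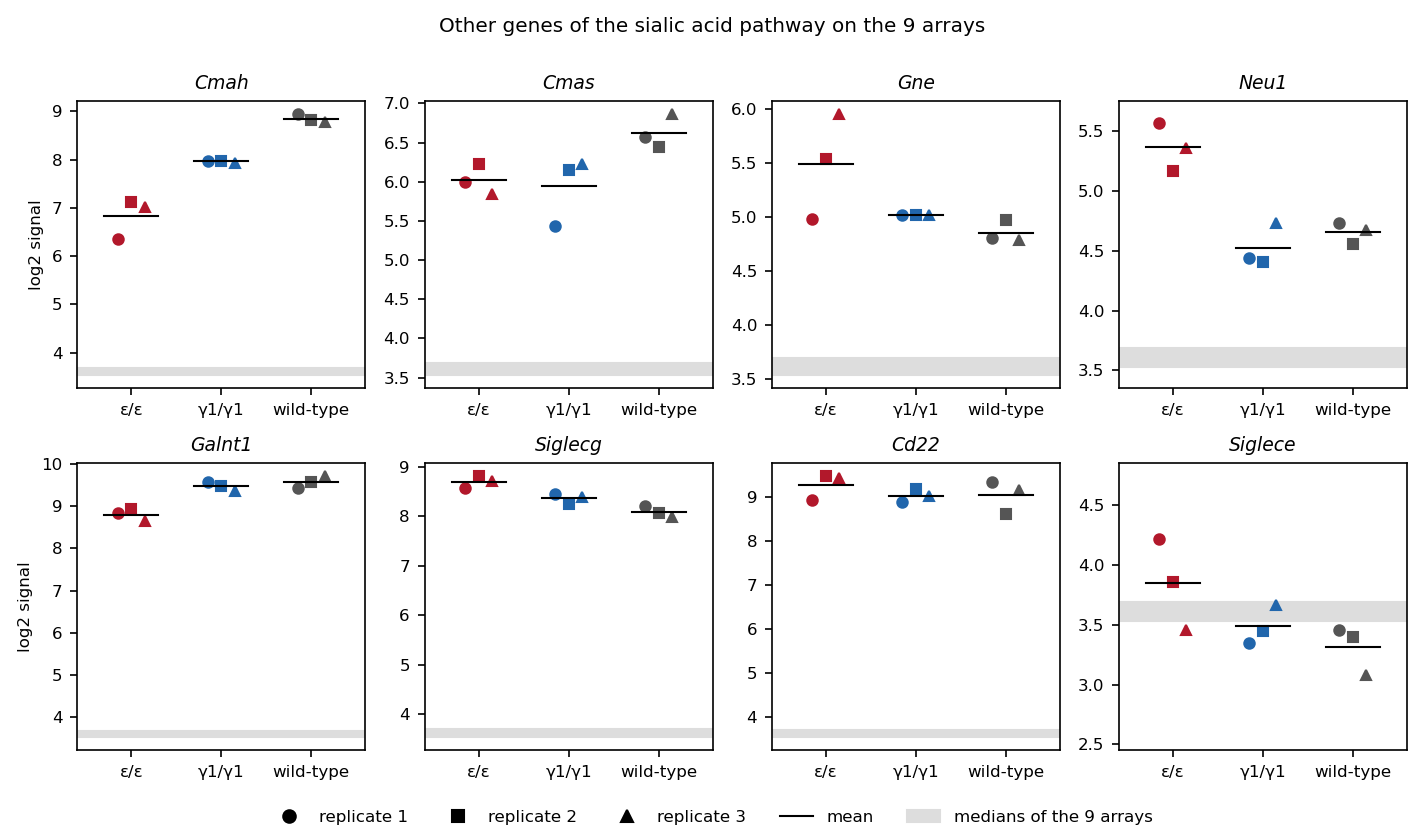
Log2 signal (vertical axis, a separate range per panel) of 8 other genes of the sialic acid pathway in ε/ε, γ1/γ1 and wild-type arrays. Each symbol is 1 array, the bar is the mean of 3 arrays and the grey band spans the medians of the 9 arrays. Cmah takes 3 separate levels, at 6.35 to 7.13 on ε/ε arrays, 7.93 to 7.98 on γ1/γ1 arrays and 8.78 to 8.94 on wild-type arrays, and Siglece lies near the array medians.

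Of the sialidases, which remove sialic acid, 2 of 4 were tested and Neu1, the lysosomal one, passed. Its signals were 5.57, 5.17 and 5.36 in ε/ε, 4.44, 4.41 and 4.73 in γ1/γ1, and 4.73, 4.56 and 4.67 in wild-type. The ε/ε arrays lay above all others, while γ1/γ1 and wild-type overlapped. Neu1 rose by 0.71 in ε/ε against wild-type (SE 0.15, 1.64-fold, adjusted p = 0.0252) and by 0.84 in ε/ε against γ1/γ1 (SE 0.15, adjusted p = 0.0222). Without ε/ε replicate 1, which had its highest value, neither passed, at 0.61 with an adjusted p of 0.0644 against wild-type and 0.74 with an adjusted p of 0.0565 against γ1/γ1. Against wild-type it also missed without ε/ε replicate 3 or any wild-type array (adjusted p of 0.0513 to 0.102), and against γ1/γ1 without γ1/γ1 replicate 1 (0.0732) or 2 (0.0725).

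Among 15 makers of O-glycan acceptors, of which 11 were tested, Galnt1 alone passed. Galnt1, an enzyme that starts mucin-type O-glycans, had signals of 8.84, 8.92 and 8.64 in ε/ε, 9.57, 9.47 and 9.35 in γ1/γ1, and 9.42, 9.58 and 9.70 in wild-type. The ε/ε arrays lay below all others. It fell by 0.77 in ε/ε against wild-type (SE 0.14, adjusted p = 0.0147) and by 0.67 in ε/ε against γ1/γ1 (SE 0.14, adjusted p = 0.0397). The call against wild-type was lost without wild-type replicate 2 (adjusted p = 0.0621) or replicate 3 (adjusted p = 0.0665). The call against γ1/γ1 was lost in 13 of 19 other settings, over which its adjusted p ranged from 0.0193 to 0.144. A second Galnt1 probe set had the same order, with means of 6.83 in ε/ε cells, 7.52 in γ1/γ1 cells and 7.77 in wild-type cells.

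Of 9 listed Siglecs 5 were tested. Siglecg, an inhibitory receptor of B cells, had means of 8.69 in ε/ε cells, 8.35 in γ1/γ1 cells and 8.09 in wild-type cells and rose by 0.60 in ε/ε against wild-type (SE 0.13, adjusted p = 0.0294). That call was lost without ε/ε replicate 2 or 3 (adjusted p of 0.0653 and 0.0600), without wild-type replicate 2 or 3 (0.102 and 0.109) and with only the 6 arrays compared (0.0555). Cd22 differed by 0.24 in ε/ε against wild-type (95% interval -0.24 to 0.72, adjusted p = 0.529) and by -0.01 in γ1/γ1 against wild-type (adjusted p = 0.998), with overlapping groups. Siglece, the receptor gene for the product of mouse St8sia6, was above the array median on only 2 arrays and was not tested. Its signals were 4.22, 3.86 and 3.46 in ε/ε, 3.35, 3.45 and 3.67 in γ1/γ1, and 3.46, 3.40 and 3.08 in wild-type. The highest Siglece value was on ε/ε replicate 1, the array with the most macrophage signal.

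The other sialyltransferases, the N-glycan makers and the ganglioside makers held no gene that passed. Of 10 other sialyltransferases 5 were tested, and the smallest p-values were those of St6galnac3 and St6galnac4, which add sialic acid to N-acetylgalactosamine in O-glycans or gangliosides. St6galnac3 differed by 0.65 (adjusted p = 0.0598) and St6galnac4 by 0.54 (adjusted p = 0.0633) in ε/ε against wild-type. Among 11 tested N-glycan genes, Fut8, which adds core fucose, differed by 0.85 (adjusted p = 0.0672) and Mgat4b, a branching enzyme, by 0.86 (adjusted p = 0.0807) in ε/ε against γ1/γ1. Mgat4b exceeded the array median on 3 arrays only, those of ε/ε. It was therefore tested only through its high group, and its p-value is not independent of the filter. Among 4 tested ganglioside genes, Ugcg, which makes glucosylceramide, differed by -0.41 (adjusted p = 0.107) and B4galnt1, the GM2 synthase, by 0.67 (adjusted p = 0.113) in ε/ε against wild-type.

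Some lists of markers of other cells also differed among the arrays. The mean of the macrophage list was highest on 1 array, ε/ε replicate 1, and its γ1/γ1 and wild-type ranges overlapped. Of its 14 tested genes 0 passed limma's adjusted p in any comparison. At an unadjusted p under 0.05 were 5 for ε/ε and 2 for γ1/γ1 against wild-type, beside 3016 and 830 of the 12170 genes tested. On the macrophage list 16, 14 and 13 of 18 genes lay above the array median in ε/ε, 10, 10 and 11 in γ1/γ1, and 9, 11 and 10 in wild-type. In the array with the highest list mean, ε/ε replicate 1, St8sia6 was the lowest of the ε/ε values and St8sia4 and Cmah were the lowest of all 9 arrays. The mean of a list of marginal zone B cell genes was 5.67 to 5.80 in ε/ε cells, 5.31 to 5.51 in γ1/γ1 cells and 4.69 to 4.91 in wild-type cells. Of its 7 tested genes 4 rose in ε/ε against wild-type, beside 2.33% of all genes: Il9r by 2.82, Ackr3 by 2.28, Myof by 1.68 and Dtx1 by 1.08. Il9r also rose by 2.98 in γ1/γ1 against wild-type. The other tested genes of the list did not pass in ε/ε against wild-type, with differences of 0.21 for Cr2, -0.17 for Cd1d1 and 0.07 for Cd9. Some genes of the list were chosen with their change known, so the list is not independent evidence of its direction. The mean of a follicular B cell list was 7.21 to 7.55 in ε/ε cells, 7.82 to 8.05 in γ1/γ1 cells and 7.77 to 8.09 in wild-type cells. Of its 7 tested genes 3 fell in ε/ε against wild-type, beside 4.02% of all genes: Zfp318 by 1.98, Cd200 by 1.38 and Cd55 by 0.95. The others did not pass and went both ways, with differences of 0.54 for Fcer2a, 0.69 for Cxcr5, -0.25 for Klf2 and -0.19 for Bach2. The mean of a dendritic cell list was 3.76 to 3.90 in ε/ε cells, 3.66 to 3.86 in γ1/γ1 cells and 3.53 to 3.58 in wild-type cells. Of its 4 tested genes 0 passed limma's adjusted p in any comparison, with 1 at an unadjusted p under 0.05 in each comparison with wild-type and 0 between ε/ε and γ1/γ1. The part of these cells in the sialyltransferase differences was not tested.

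**Figure D4:**
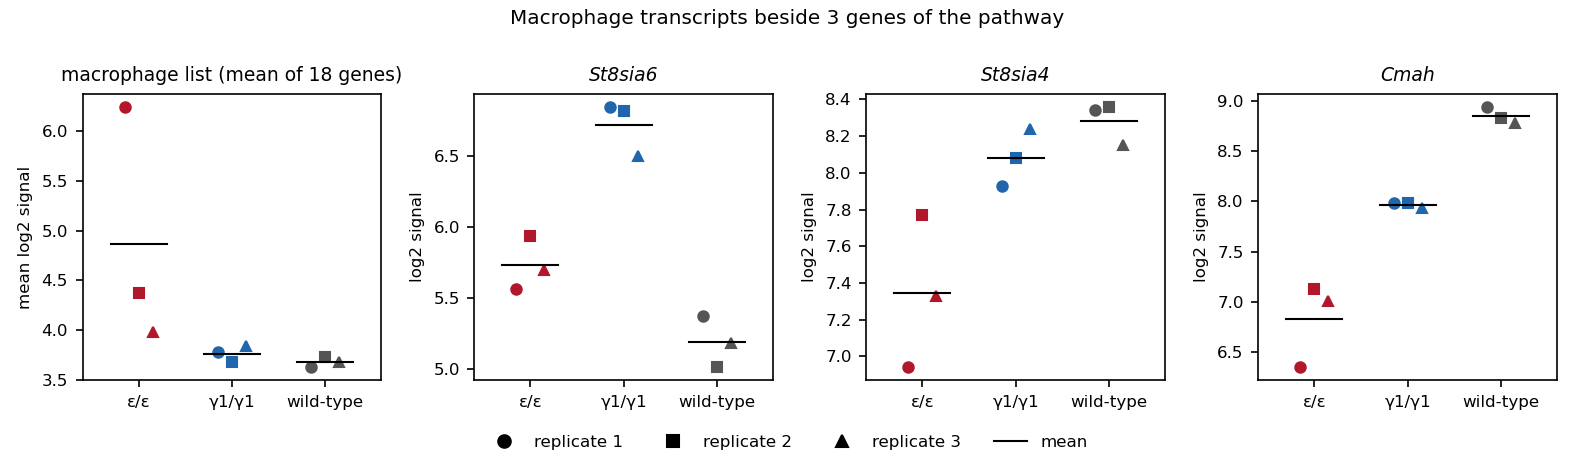
Mean log2 signal of 18 macrophage genes (left panel) beside the log2 signals of St8sia6, St8sia4 and Cmah in ε/ε, γ1/γ1 and wild-type arrays. Each symbol is 1 array and the bar is the mean of 3 arrays. ε/ε replicate 1 stands apart at a macrophage mean of 6.24, and St8sia6 there is 5.56, beside 5.94 and 5.70 on the other ε/ε arrays.

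The genes whose values ran most like those of St8sia6 were sought by the root mean square difference over the 9 arrays, after each gene was centred on its own mean. Over the other 12169 genes tested the median of this distance was 0.71. The 5 nearest were Cpne4 at 0.32, Gm5781 at 0.34, Rabac1 at 0.35, Fam169b at 0.36 and Gm5617 at 0.36. All 5 were highest in γ1/γ1, but unlike St8sia6 each overlapped between ε/ε and wild-type.

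Cpne4, a copine, had signals of 3.17, 2.91 and 2.98 in ε/ε, 4.26, 4.71 and 3.88 in γ1/γ1, and 3.17, 2.80 and 3.17 in wild-type, and exceeded the array median only in γ1/γ1. Rabac1, which binds Rab proteins, had signals of 6.33, 6.62 and 6.20 in ε/ε, 7.17, 7.19 and 6.83 in γ1/γ1, and 6.58, 6.20 and 6.26 in wild-type. Fam169b averaged 5.62 in ε/ε cells, 6.47 in γ1/γ1 cells and 5.64 in wild-type cells. Their γ1/γ1 minus wild-type differences were 1.24 for Cpne4, 0.72 for Rabac1 and 0.83 for Fam169b, all smaller than the 1.53 of St8sia6. These genes were chosen for their likeness, so the values are descriptions.

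**Figure D5:**
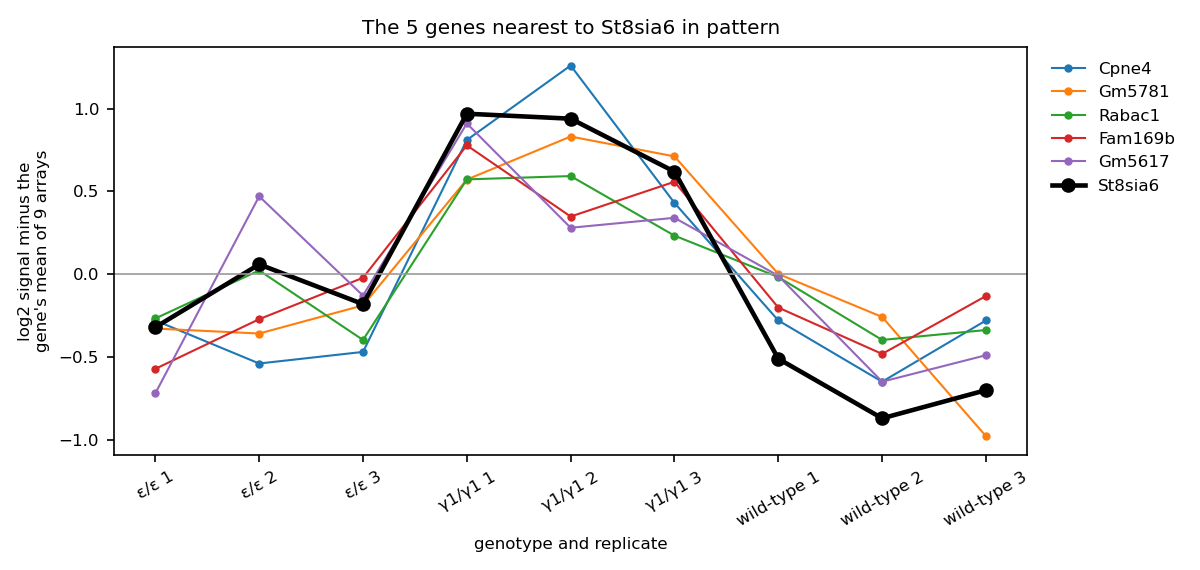
Log2 signal minus each gene's mean over 9 arrays (vertical axis) for St8sia6 (black) and the 5 genes nearest to it, on the ε/ε, γ1/γ1 and wild-type arrays in turn. All 6 genes have their highest value on a γ1/γ1 array, and St8sia6 alone is higher on each ε/ε array than on every wild-type array.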

How the data were processed

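Total RNA of sorted splenic follicular B cells, 54 to 360 ng, was amplified with a Nugen kit and measured on single-colour arrays, per the labels' protocols. The authors deposited log2 signals of 41345 probe sets on 9 arrays, the log2 scale being read from the values. For background correction, normalization and summary of probes the method is not given in the sources used here. R version 3.3.1 is named in the submitters' processing notes. Equal values on 2 or more arrays occurred in 45.9% of probe sets, among them 6 of the 10 members, and their effect on the spread was not tested. For arrays, their number limits the precision.

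The platform's annotation gave 23521 probe sets 1 symbol, 1814 several and 16010 none. The brightest probe set with 1 symbol stood for each of 22180 genes. A gene was tested when above the array median on at least 3 arrays, which kept 12170 and set aside 10010. All 9 arrays entered 1 fit in limma 3.58.1 (R 4.3.3), with 1 mean per genotype and Benjamini-Hochberg adjustment over the genes tested, at an adjusted p threshold of 0.05. The fit was tested on simulated data. Python 3.11.15 with matplotlib 3.10.9 drew the figures. Start-site windows came from RefSeq tables of GRCm38.p6, and all 10 members matched by gene identifier.

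The members, lists and tests were chosen with earlier results of these data known. The rule named all members; from each pathway list the genes that passed, up to 4 per comparison by size, or else the 2 with the smallest p; Siglece, Cd22 and Siglecg; and the 5 patterns nearest to St8sia6. Alternatives were quantile normalization, centring on array medians, a filter at percentile 75 or none, the mean of probe sets, a trended and robust variance, the replicate number as a block, a fit of the 6 arrays compared alone, low Xist as a covariate, leaving out the arrays of low Xist, and leaving out each array.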

Additional observations from a re-analysis of the deposited data

How the results depend on the processing

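The sign of the St8sia6 differences held in all 19 other settings in each comparison, but its calls did not. St8sia6 missed the threshold in 7 of the 19 for γ1/γ1 minus wild-type and in 4 for ε/ε minus γ1/γ1. For ε/ε minus wild-type it missed in all 19. St8sia4 missed in 8 of the 19 for ε/ε minus wild-type, the comparison in which it had passed.

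Genes that passed between ε/ε and wild-type numbered 772, against 424 with only the 6 arrays and 186 to 789 with an array left out (512 without wild-type replicate 1, 186 without replicate 2, 210 without replicate 3). Between γ1/γ1 and wild-type they numbered 5, against 0 with only the 6 arrays (974 at an unadjusted p under 0.05), 0 with the replicate block (846), 3 without the arrays of low Xist and 0 to 6 with an array left out (0 without γ1/γ1 replicate 2, with 1016 unadjusted, 3 without γ1/γ1 replicate 3, and 2 without wild-type replicate 2 or 3). Between ε/ε and γ1/γ1 they numbered 324, against 56 with only the 6 arrays, 513 with low Xist as a covariate, 88 without those arrays, 237 with the replicate block and 122 to 330 with an array left out (196 without ε/ε replicate 1, 140, 160 and 122 without γ1/γ1 replicates 1, 2 and 3, 203, 213 and 167 without wild-type replicates 1, 2 and 3). Fewer samples enter the fits of 6 arrays and those with an array left out; the other causes were not tested. The share of calls that were higher in ε/ε was 36.7% against wild-type, 57.7% under quantile normalization and 45.6% with centred arrays, and 38.3%, 53.4% and 54.5% in the same order against γ1/γ1.

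Pathway genes that passed numbered 4 for ε/ε minus wild-type, with 1 to 5 when an array was left out (2 without ε/ε replicate 3, 1 without wild-type replicate 2 or 3). For ε/ε minus γ1/γ1 they numbered 3, against 0 with only the 6 arrays, 5 with low Xist as a covariate, 1 without those arrays and 0 to 4 with an array left out (0 without γ1/γ1 replicate 1, 1 without γ1/γ1 replicate 2 or 3, and also 1 without ε/ε replicate 1). For γ1/γ1 minus wild-type they numbered 0 in every setting. Neu1 in ε/ε minus wild-type had adjusted p of 0.0174 to 0.102 over the 19 settings and missed the threshold in 6; Neu1 in ε/ε minus γ1/γ1 had 0.0140 to 0.118 and missed in 5. Galnt1 in ε/ε minus wild-type had 0.00638 to 0.0665 and missed without wild-type replicate 2 or 3. Siglecg in ε/ε minus wild-type had 0.0167 to 0.109 and missed in 6 settings, among them the replicate block (0.0579) and only the 6 arrays (0.0555). Cmah in ε/ε minus γ1/γ1 had 0.0113 to 0.0822 and missed with only the 6 arrays and without any one γ1/γ1 replicate. St3gal2 and St3gal4 were not kept by the filter at percentile 75.

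Whether the replicate numbers pair the samples could not be told from the correlations of the arrays' deviations. Of 9 same-number array pairs 1 correlated above 0.1 (range -0.09 to 0.16). Of 18 pairs with different numbers 0 did (range -0.07 to 0.08). In 10 of 18 comparisons an array was closest to its own number, and no chance level was computed for that count. Both arrays of low Xist carried replicate number 1. Dim signals limit what can be said of St8sia1, St3gal4, St3gal5 and Siglece.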
